A study of Homo sapiens with 8 samples.

Results

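Oxidative phosphorylation is carried out in the inner mitochondrial membrane by 5 protein complexes, most of whose subunits are encoded in the nucleus. The m6A comparison of CSTF2-knockout and parental cells was described here for these nuclear genes. Members were found by gene name: names starting with NDUF, UQCR, ATP5 or ATPAF, the succinate dehydrogenase genes SDHA to SDHD, SDHAF or COX followed by a digit, CYC1 and CYCS, without pseudogenes. The rule found 62 of the 10447 genes listed for HUH7 and 26 of the 5477 genes listed for PLC/PRF/5, together 73 different genes of 11992.

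The study used HUH7 and PLC/PRF/5, 2 human cell lines from hepatocellular carcinoma, and asked how RNA methylation differs after loss of CSTF2, a subunit of the cleavage stimulation factor that helps to form mRNA 3′ ends. Each line had 4 libraries: an m6A immunoprecipitate and an input from cells edited with CRISPR-Cas9 to lack CSTF2 (HUH7_CKO_ip, HUH7_CKO_input, PLC_CKO_ip, PLC_CKO_input), and the same pair from parental cells (HUH7_CON_ip, HUH7_CON_input, PLC_CON_ip, PLC_CON_input). The knockout and parental libraries of a line share the line's background, and whether the knockout cells were 1 clone or a pool is not given in the sources used here. With 1 library per group there was no replicate, and no p-value between genotypes could be computed.

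The authors' deposited table holds 1 log2 fold change per gene in HUH7 and 1 or more per gene, taken as peaks, in PLC/PRF/5. Its name sets control against knockout, but its headers do not say which genotype is the numerator, so every sign below is the deposited one and stands for neither genotype. How the immunoprecipitate was set against the input is not given either, so a difference in methylation per transcript and a difference in transcript amount cannot be told apart, nor can fewer cells with an RNA and less RNA per cell. Sequencing depth is unknown. CSTF2 itself had 0 values in HUH7 and 1 peak in PLC/PRF/5, at -0.50 in the authors' deposited table, which does not check the knockout because the value is no transcript level. Levels that would check the cell type were not analysed here. By listing alone, 6 of 10 hepatocyte marker genes were present in the HUH7 column and 7 of 10 in the PLC/PRF/5 column. Of all nuclear protein-coding genes, 51.1% and 24.1% were listed in these columns. AFP, TTR and APOH were listed in neither column. Stromal markers were listed for 4 of 4 genes in HUH7 and 0 of 4 in PLC/PRF/5. Endothelial markers were listed for 2 of 4 in HUH7 and 1 of 4 in PLC/PRF/5, and blood markers for 1 of 3 in each.

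Complex I takes electrons from NADH and complex II from succinate. Both pass them to ubiquinone, and complex III hands them on to cytochrome c, which carries them to complex IV, where oxygen is reduced. Complexes I, III and IV pump protons, and complex V, the ATP synthase, uses the gradient to make ATP. Assembly factors insert cofactors or hold intermediates and are not part of the finished complex. Hepatocytes are rich in mitochondria, and m6A on mRNA is known to affect splicing, stability and translation of transcripts.

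In HUH7, members had values close to 0 more often than the column as a whole, as a description without a test. Of the 62 members, 31 (50%) lay within 0.25 of 0 on the log2 scale, against 24.4% of all genes of the column. The interquartile range was -0.22 to 0.37 for the members and -0.36 to 0.88 for all other genes. The median was 0.05 for the members and 0.20 for all other genes. Members were positive in 34 and negative in 28 cases, or 54.8% positive, where 60.8% of all genes were positive. After the column's median was subtracted, the split was 25 positive and 37 negative, so the balance of signs depends on where the column is centred.

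An absolute log2 fold change of 1, a 2-fold size, was reached by 11 of 62 members (17.7%), where 36.9% of all genes of the column reached it. Of these 11, 6 were positive and 5 negative, beside 22.2% of all genes at 1 or more and 14.6% at -1 or less. At a size of 0.5 the counts were 21 of 62 members (33.9%) and 57.7% of all genes. These shares describe 1 deposited comparison, and no test of the difference was made.

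**Figure D1:**
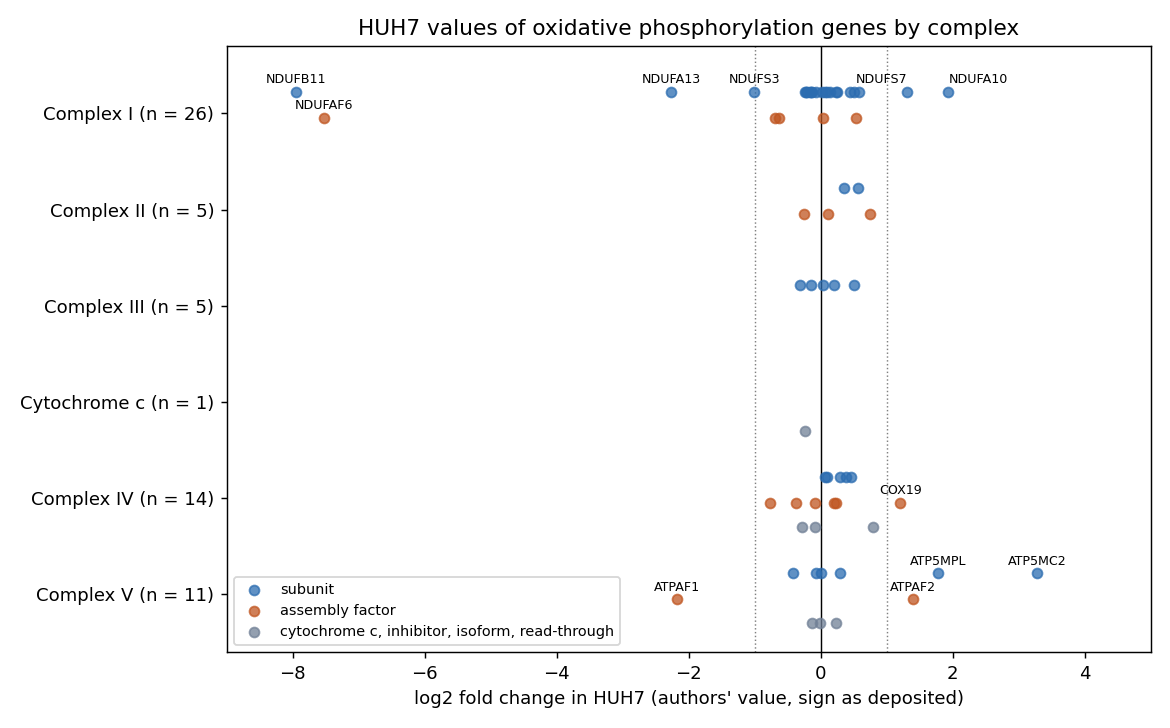
HUH7 log2 fold changes (x axis, authors' values, sign as deposited) of the 62 members by complex (y axis); each point is 1 gene, coloured as subunit, assembly factor or other, and dotted lines mark -1 and 1. The 11 genes at or beyond the lines are named as deposited, and complexes II and III have none of them.

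**Figure D2:**
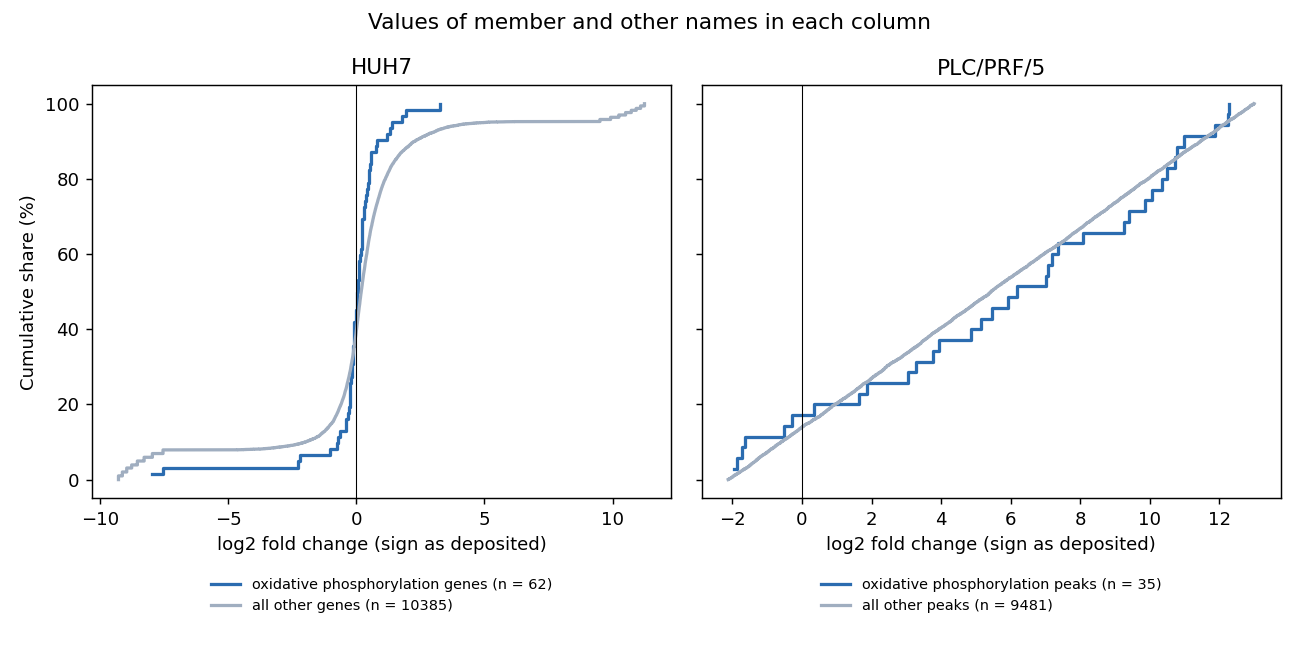
Cumulative share (y axis, %) of log2 fold changes (x axis, sign as deposited) for oxidative phosphorylation names (blue) and all other names (grey) in each column. In HUH7 the blue curve is steeper around 0, and in PLC/PRF/5 both curves run near a straight line from about -2 to 13.

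Values repeated across genes form the far ends of the HUH7 column. Such a value is 1 shared by 10 or more genes to 6 decimals with a size above 1, and 12.6% of all genes held one (4.7% positive and 7.89% negative). Among the members 2 of 62 did, both negative and both of complex I. NDUFB11, an X-linked accessory subunit of the membrane arm (chromosome X, 47142216 to 47145491, GRCh38), was given -7.94 in the authors' deposited table, a value shared by 104 genes. NDUFAF6, an assembly factor of complex I (chromosome 8, 94895799 to 95118496), was given -7.53 in the authors' deposited table, a value shared by 102 genes. On the linear scale these are 246 and 185-fold sizes, far outside the range of -2.26 to 3.28 held by the other 60 members. Without repeated values, 9 of 60 members reached a size of 1, beside 27.8% of the 9132 unrepeated genes.

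Complex I held the most members, 21 subunits and 5 assembly factors in HUH7, with 13 positive and 13 negative values and a median of -0.02. The core subunits, which carry the flavin and the iron-sulfur clusters, went both ways. NDUFS7, which holds the cluster next to ubiquinone (chromosome 19, 1383907 to 1395584), had 1.31 in the authors' deposited table, a 2.48-fold size. NDUFS3, a core subunit of the arm that reaches into the matrix (chromosome 11, 47579074 to 47584562), had -1.01 in the authors' deposited table, just past the threshold. NDUFS1, NDUFV1 and NDUFS8 lay near 0 in the authors' deposited table: NDUFS1 at 0.10, NDUFV1, where NADH is oxidised, at -0.15, and NDUFS8 at -0.20. The 6 listed core subunits had 3 positive and 3 negative values with a median of -0.03.

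The 15 listed accessory subunits of complex I had 8 positive and 7 negative values and a median of 0.02. NDUFA10, an accessory subunit of the membrane arm (chromosome 2, 239892442 to 240025342), had the highest complex I value in the authors' deposited table, 1.94, a 3.83-fold size. NDUFA13, an accessory subunit also described as a regulator of cell death (chromosome 19, 19516225 to 19528198), had the lowest unrepeated value of all members in the authors' deposited table, -2.26, a 4.80-fold size. Genes at or below the NDUFA13 value made up 9.44% of the column. NDUFA8 (0.57) and NDUFB2 (0.51) followed NDUFA10 on the positive side in the authors' deposited table. NDUFC1 lay nearest to 0, at 0.02, in the authors' deposited table. The remaining accessory subunits, NDUFA1, NDUFA6, NDUFA7, NDUFA11, NDUFB10, NDUFS4, NDUFS5, NDUFS6 and NDUFV3, lay between -0.24 (NDUFV3) and 0.24 (NDUFA11) in the authors' deposited table.

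Complex II, which is also an enzyme of the TCA cycle, was listed with 5 members in HUH7 and a median of 0.36. Of the 5, 4 were positive, where 60.8% of all genes of the column were positive. SDHD, a membrane anchor, had 0.57 and SDHB, the iron-sulfur subunit, 0.36 in the authors' deposited table. The assembly factors SDHAF3 (0.75) and SDHAF1 (-0.24), which help the iron-sulfur subunit to mature, were the highest and lowest of the complex in the authors' deposited table. SDHAF2, needed to attach the flavin to SDHA, had 0.11 in the authors' deposited table. None reached a size of 1.

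Complex III was listed with 5 subunits in HUH7, 3 positive and 2 negative, with a median of 0.03. UQCRFS1, the Rieske iron-sulfur protein, was highest at 0.51 and the small subunit UQCRQ lowest at -0.31 in the authors' deposited table. The small subunits UQCR10 (0.03) and UQCR11 (-0.15) and the heme subunit CYC1 (0.21) lay between them in the authors' deposited table. CYCS, the cytochrome c gene, had -0.24 in the authors' deposited table. None of these reached a size of 1, and the whole of complex III spanned less than 1 log2 unit.

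The 5 listed subunits of complex IV were all positive and small in HUH7, where 60.8% of all genes of the column were positive. COX5B (0.46), COX4I1 (0.38), COX7B (0.30), NDUFA4 (0.09) and COX6A1 (0.07) were the subunits in the authors' deposited table. NDUFA4, now named COXFA4, is counted here as a subunit of complex IV, where it belongs despite its older name. Of the 5, COX5B, COX4I1 and COX7B, were above 0 also with the column's median of 0.20 subtracted, so NDUFA4 and COX6A1 would change sign under that centring.

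Assembly factors of complex IV were more spread than its subunits. COX19, a copper-related factor (chromosome 7, 964852 to 975549), was highest at 1.21 and COX10, which makes the precursor of heme A, lowest at -0.76 in the authors' deposited table. Between them lay the copper factors COX11 (0.23) and COX17 (-0.38), COX14 (0.21) and COX15 (-0.09), the next enzyme of heme A synthesis, in the authors' deposited table. NDUFA4L2, a paralogue of NDUFA4 known as a hypoxia target, had 0.80, COX8C, a paralogue of COX8A, -0.08 and COX7A2L, which joins complexes into supercomplexes, -0.28 in the authors' deposited table.

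Complex V had the widest spread of unrepeated values, with 11 members in HUH7, 5 positive and 6 negative, and a median of -0.00120. ATP5MC2, 1 of 3 genes for the c subunit of the rotor ring (chromosome 12, 53665170 to 53681423), had the highest value of all members in the authors' deposited table, 3.28, a 9.70-fold size. ATP5MC3, another c subunit gene, had 0.30 in the authors' deposited table, and ATP5MC1 was not listed in either line. The c subunit genes encode the same mature protein behind different leader peptides.

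ATP5MPL, now ATP5MJ, a small membrane subunit (chromosome 14, 103912288 to 103921529), had 1.78 in the authors' deposited table, a 3.43-fold size. Of the remaining complex V subunits, ATP5PF of the peripheral stalk had -0.41 in the authors' deposited table. ATP5F1D of the central stalk, at -0.07, and ATP5MF, at -0.00120, were close to 0 in the authors' deposited table. ATP5IF1, the inhibitor that stops the synthase from running backwards, had 0.24, ATP5MGL, a paralogue of ATP5MG, -0.13 and the read-through gene ATP5MF-PTCD1 -0.00714 in the authors' deposited table. ATP5MF and ATP5MF-PTCD1 share exons, so their values are not separate measurements.

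The assembly factors of complex V had opposite signs. ATPAF1, a chaperone of the beta subunit of the catalytic head (chromosome 1, 46632737 to 46668557), had -2.17, a 4.50-fold size, and ATPAF2, a chaperone of its alpha subunit (chromosome 17, 18015059 to 18039168), had 1.40, a 2.65-fold size, in the authors' deposited table. ATPAF2 overlaps DRC3, which had 1.63 in HUH7 in the authors' deposited table, and whether reads were shared was not tested.

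Across the complexes, the 39 listed subunits had 24 positive and 15 negative values with a median of 0.09. Their 61.5% positive lay near the 60.8% of all genes of the column. The 16 listed assembly factors had 8 positive and 8 negative values with a median of -0.03. The interquartile range was -0.14 to 0.41 for subunits and -0.65 to 0.31 for assembly factors. A size of 1 was reached by 7 of 39 subunits (17.9%) and 4 of 16 assembly factors (25%), both below the 36.9% of all genes of the column. With the column's median subtracted, the splits were 17 positive and 22 negative for subunits and 6 positive and 10 negative for assembly factors. Both ranges cover 0 and overlap each other.

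Of the complex I assembly factors, NDUFAF7 had -0.69, NDUFAF3 -0.63, NDUFAF1 0.03 and NDUFAF8 0.54 in the authors' deposited table, beside the repeated value of NDUFAF6. In HUH7, 17 of 62 members overlap another protein-coding gene in the RefSeq table, and the share over all genes is not given here. Among the 11 members past a size of 1, ATPAF2, NDUFAF6 and NDUFB11 had such overlap, and 8 were free of it. RBM10, which overlaps NDUFB11, had 0.60, and TP53INP1, which overlaps NDUFAF6, 0.37 in the authors' deposited table, both of the opposite sign to the member. CCNE2, which also overlaps NDUFAF6, had no HUH7 value. Whether reads were shared was not tested.

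In PLC/PRF/5, the members had 35 peaks in 26 genes, 29 positive and 6 negative (82.9% positive), where 86% of all peaks were positive. By gene, taken as the median of its peaks, 24 were positive and 2 negative (92.3% positive), where 90.3% of all genes were positive. A size of 1 was reached by 24 of 26 members (92.3%) and by 89% of all genes. The median member peak was 6.18, with an interquartile range of 2.47 to 9.96, and the median of all peaks 5.44, with a range of 1.72 to 9.19.

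The whole PLC/PRF/5 column was spread nearly evenly from -2.12 to 13, and the members' peaks were spread in a like way. Cut into 4 equal stretches, that range held, from low to high, 8, 7, 8 and 12 member peaks, and 2344, 2422, 2383 and 2367 of all peaks. An exactly even spread would put 86.0% of peaks above 0. The members' share of positive peaks lay near that value. Over the 1274 genes with 2 peaks, the peaks of the same gene lay a median of 4.35 log2 units apart, and any pair of these peaks, whichever their genes, 4.39. Peaks of the same gene were thus hardly more alike than peaks of different genes, and whether each value is tied to its gene name cannot be settled from the table. The PLC/PRF/5 values of single genes below, and comparisons of roles or lines made with them, carry that doubt. With the column's median subtracted, 15 member genes were positive and 11 negative.

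**Figure D3:**
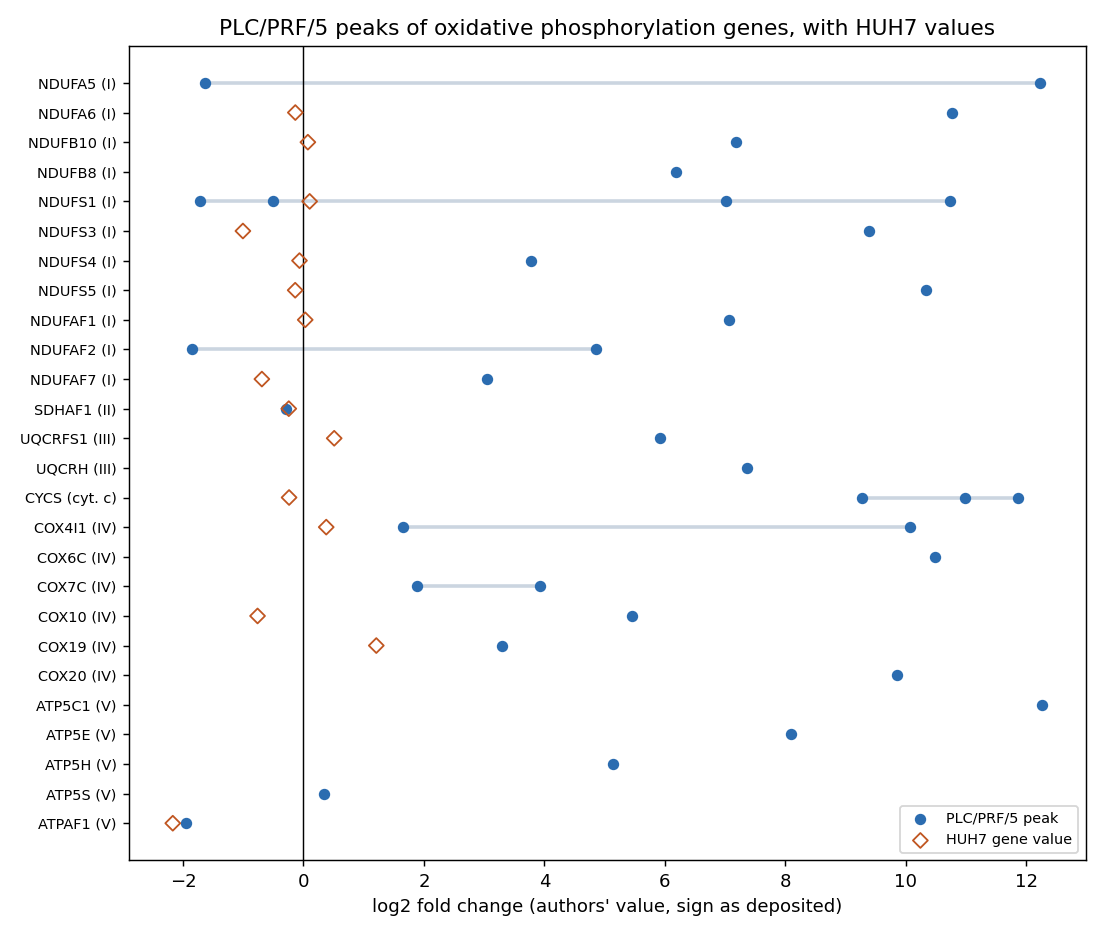
PLC/PRF/5 peaks (filled points) of the 26 members listed there, 1 row per gene with its complex in parentheses and lines joining peaks of the same gene, and the HUH7 value (open diamonds) of the 15 also listed in HUH7; the x axis is the authors' log2 fold change, sign as deposited. Peaks of NDUFA5 and NDUFS1 span more than 12 log2 units, while the 15 HUH7 values lie between -2.17 and 1.21.

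Members with several peaks showed how far values of the same gene differed in PLC/PRF/5. NDUFS1, the largest complex I subunit, had 4 peaks at -1.72, -0.51, 7.02 and 10.73 in the authors' deposited table. NDUFA5, an accessory subunit, had peaks at -1.64 and 12.23, and NDUFAF2, an assembly factor of complex I, at -1.86 and 4.86 in the authors' deposited table. These 3 genes had peaks of both signs, so a median hides opposite values. COX4I1 (1.65 and 10.07), COX7C (1.88 and 3.93) and CYCS (9.27, 10.98 and 11.86) had only positive peaks in the authors' deposited table. The other 20 members had 1 peak each, so 23.1% of members had several peaks, against 39.5% of all genes.

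Subunits with 1 PLC/PRF/5 peak were all positive, in a column where 86% of all peaks were positive. Over every subunit peak, those of NDUFS1 and NDUFA5 included, 19 of 22 were positive (86.4%), near that share. The complex I subunits with 1 peak were NDUFA6 (10.78), NDUFS5 (10.35), NDUFS3 (9.39), NDUFB10 (7.19), NDUFB8 (6.18) and NDUFS4 (3.78) in the authors' deposited table. UQCRH, the hinge protein of complex III, had 7.37 and UQCRFS1 5.92, and COX6C of complex IV 10.48 in the authors' deposited table. ATP5C1, now ATP5F1C, the gamma subunit of the central stalk, had the highest member peak in the authors' deposited table, 12.27. ATP5E, now ATP5F1E and also of the central stalk, had 8.09 and ATP5H, now ATP5PD, of the peripheral stalk, 5.14 in the authors' deposited table. ATP5S, now named DMAC2L, had 0.33 in the authors' deposited table.

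Both members with a negative median in PLC/PRF/5 were assembly factors, ATPAF1 at -1.95 and SDHAF1 at -0.30 in the authors' deposited table. COX20, a chaperone of a mitochondrially encoded complex IV subunit, had 9.86, NDUFAF1 7.07, COX10 5.46, COX19 3.29 and NDUFAF7 3.05 in the authors' deposited table. Genewise medians ran from 2.91 to 12.27 for 16 subunits, with a median of 6.68, and from -1.95 to 9.86 for 8 assembly factors, with a median of 3.17. The ranges overlap, and in an evenly spread column of unknown error this difference has no test.

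The lines shared 15 members, 24.2% of those in HUH7 and 57.7% of those in PLC/PRF/5. Over all genes, matched by current symbol, 3929 were shared, 37.6% of those in HUH7 and 71.8% of those in PLC/PRF/5. The matching was unlike, because members had to meet the rule by deposited name. PLC/PRF/5 listed ATP5IF1 and ATP5MJ as ATPIF1 and C14orf2, so these genes, also listed in HUH7, were not counted as shared. Both member shares would be higher by current symbol. Of the 15 shared members, 6 were positive and 2 negative in both columns, and 7 were negative in HUH7 and positive in PLC/PRF/5. Over all listed genes, 60.8% were positive in HUH7 and, by the median of peaks, 90.3% in PLC/PRF/5. The split over all shared genes is not given here. That both columns use the same direction is not stated. ATPAF1 was negative in both, at -2.17 in HUH7 and -1.95 in PLC/PRF/5, and COX19 positive in both, at 1.21 in HUH7 and 3.29 in PLC/PRF/5, per the authors' deposited table. NDUFS3 had opposite signs, with -1.01 in HUH7 and 9.39 in PLC/PRF/5, per the authors' deposited table. These 3 of the 15 were the shared members past a size of 1 in both lines. Of all listed genes, 36.9% reached that size in HUH7 and, by the median of peaks, 89% in PLC/PRF/5. The share of all shared genes past it in both is not given here. The other 12 shared members lay between -0.76 and 0.51 in HUH7. For example CYCS had -0.24 in HUH7 and a median of 10.98 in PLC/PRF/5, from the authors' deposited table.

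Which genes of the family were listed at all also differed by complex. The RefSeq table gave 112 nuclear genes for subunits, isoforms, assembly factors, cytochrome c and the inhibitor, of which 61 (54.5%) were listed in HUH7 and 25 (22.3%) in PLC/PRF/5. Of all 20043 nuclear protein-coding genes 51.1% and 24.1% were listed in these columns. Those shares were counted by current symbol, the family's by deposited names that meet the rule. By current symbol, 61 of the 112 family genes were listed in HUH7 and 27 in PLC/PRF/5. Subunits were listed for 39 of 78 genes in HUH7 and 16 of 78 in PLC/PRF/5 (17 by current symbol), and assembly factors for 16 of 23 and 8 of 23. Complex V subunits had the lowest HUH7 share of the complexes, 6 of 17 genes. The catalytic head subunits ATP5F1A and ATP5F1B, the complex III core proteins UQCRC1 and UQCRC2, and SDHA were among 41 genes listed in neither line. What a gene needed to be listed is not given in the sources used here.

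**Figure D4:**
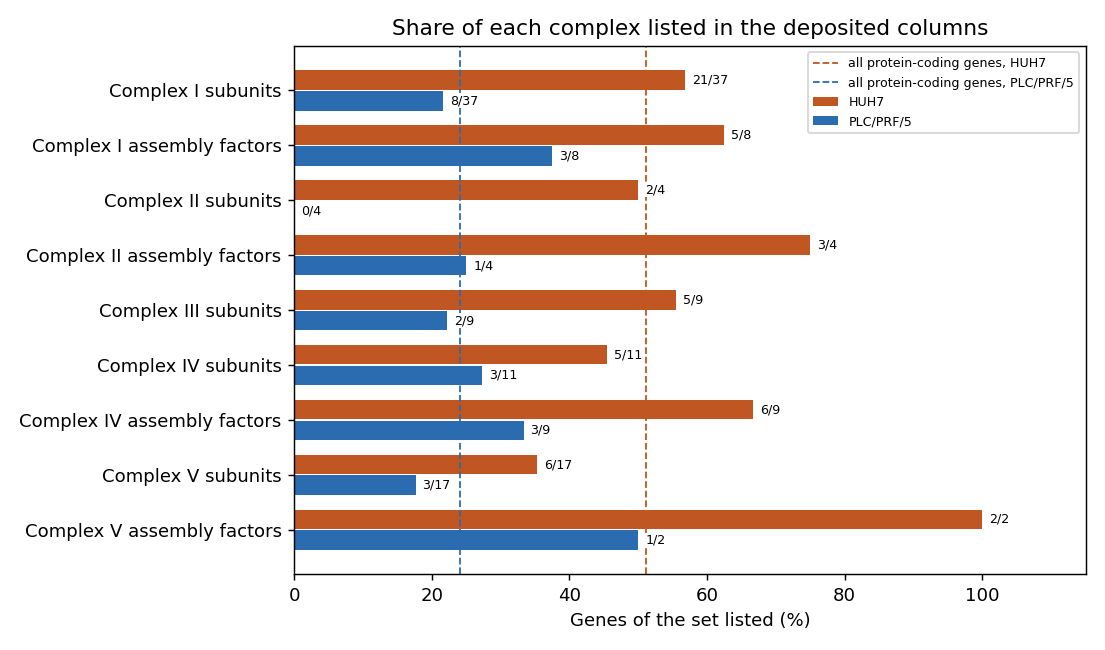
Share of genes listed (x axis, %) for subunits and assembly factors of each complex (y axis) in HUH7 (orange) and PLC/PRF/5 (blue), with counts beside the bars and dashed lines at the shares of all nuclear protein-coding genes, 51.1% and 24.1%. Bars count deposited names and the dashed lines count current symbols. Complex V subunits lie below both lines, at 6 of 17 and 3 of 17 genes, but by current symbol 4 of 17 were listed in PLC/PRF/5. Complex II subunits are listed in HUH7 only.

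Members are short genes. Their median span in the RefSeq table was 10672 bases over the 112 genes, against 24115 bases over all nuclear protein-coding genes. Members listed in HUH7 had a median span of 8922 bases and those not listed 12352 bases. Over all protein-coding genes the listed ones were longer, with a median of 30571 bases in HUH7 and 43609 bases in PLC/PRF/5. In PLC/PRF/5 the listed members had a median span of 9758 bases and the members not listed 10857 bases. Within the family the listed genes were thus the shorter ones in both columns, the reverse of the order over all genes. Gene span's part in the listing was not tested.

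Letters of known regulators' motifs, which the naming rule did not use, were found in a minority of the family's promoters. Nuclear respiratory factor 1 (NRF1), ETS-family factors such as GABP, and YY1 are known regulators of nuclear oxidative phosphorylation genes. Core letters of each were searched on both strands in RefSeq promoters of GRCh38.p14, from 250 bases before to 50 after the start, which were at hand for 94 of the 112 genes. GCGCATGC (NRF1) was found for 20 of 94 (21.3%), against 4.89% of 15843 protein-coding genes with a promoter entry. CCGGAAG (ETS) was found for 30.9% of the family and 16.5% of those genes, and ATGGCGG (YY1) for 29.8% and 9.15%. The deposited table holds no positions, so nothing in it was measured at these promoters, and the letters are a description, not binding sites.

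The promoters of 3 members are shown because they hold the NRF1 letters and belong to the best known NRF1 target (CYCS), to the highest HUH7 member (ATP5MC2) and to the other member past a size of 1 with these letters (NDUFS7). Each is 250 bases before the start, 5′ to 3′ on the gene's strand, from RefSeq, with the NRF1 letters in capitals. CYCS lies at chr7:25125261-25125510, minus strand, ATP5MC2, at 1 of its starts, at chr12:53676084-53676333, minus strand, and NDUFS7 at chr19:1383657-1383906, plus strand.
CYCS: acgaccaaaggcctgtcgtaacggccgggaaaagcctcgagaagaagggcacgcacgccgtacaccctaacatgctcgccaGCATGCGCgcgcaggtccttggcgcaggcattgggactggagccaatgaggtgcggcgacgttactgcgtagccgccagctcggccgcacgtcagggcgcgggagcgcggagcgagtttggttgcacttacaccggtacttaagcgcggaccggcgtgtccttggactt
ATP5MC2: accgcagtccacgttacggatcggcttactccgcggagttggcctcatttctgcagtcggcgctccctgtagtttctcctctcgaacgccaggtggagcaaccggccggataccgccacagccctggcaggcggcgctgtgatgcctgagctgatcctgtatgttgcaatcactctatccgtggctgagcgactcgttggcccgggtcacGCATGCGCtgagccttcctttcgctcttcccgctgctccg
NDUFS7: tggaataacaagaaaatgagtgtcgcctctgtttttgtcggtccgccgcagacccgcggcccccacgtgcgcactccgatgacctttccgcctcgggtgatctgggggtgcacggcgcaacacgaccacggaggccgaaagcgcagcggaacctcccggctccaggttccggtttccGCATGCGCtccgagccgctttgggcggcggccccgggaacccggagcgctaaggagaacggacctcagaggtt

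The capitals begin 169 bases before the start in CYCS, 40 in ATP5MC2 and 73 in NDUFS7. HUH7 values of these genes were -0.24, 3.28 and 1.31 in the authors' deposited table, so members with the NRF1 letters differed widely. The 13 HUH7 members with them had 9 positive values and a median of 0.23, from -0.41 to 3.28. The 39 without them had 21 positive values and a median of 0.03. For the YY1 letters the order was the other way, with 10 of 22 positive and a median of -0.10 for members with them, and 20 of 30 positive and a median of 0.18 for members without. For the ETS letters the medians were 0.09 over 18 members with them and 0.05 over 34 without. NRF1 itself, the factor, had 3.20 in HUH7 in the authors' deposited table.

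Other genes of the pathway were taken from lists. Their counts past a size of 1 stand beside 36.9% of all HUH7 genes, and their counts by sign beside 60.8% positive. Their listing counts stand beside the 51.1% of nuclear protein-coding genes listed in HUH7. No list was tested against these shares. Assembly factors and related genes outside the naming rule were listed for 37 of 44 genes in HUH7, 21 positive and 16 negative, with a median of 0.20, and 8 reached a size of 1. FASTKD3 is there as a related gene, not as an assembly factor. FASTKD3 (2.49), HIGD2A (1.22) and the complex I factor TIMMDC1 (1.20) led the unrepeated values, from the authors' deposited table. Of the repeated ones, LYRM7, which matures the Rieske protein, had 10.73, TMEM126B, of the complex I assembly machinery, -9.11, C12orf73, now UQCC6, -8.27 and UQCC3, of complex III assembly, -7.94 in the authors' deposited table.

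Genes of coenzyme Q synthesis were listed for 10 of 13 in HUH7, 8 positive and 2 negative, and 4 reached a size of 1. COQ8B (2.94), COQ7 (-1.70) and COQ6 (1.64) had the largest unrepeated values, and PDSS2, which makes the tail of coenzyme Q, the repeated value -8.94, in the authors' deposited table. TCA cycle and pyruvate dehydrogenase genes were listed for 9 of 17, 7 positive and 2 negative, and 4 reached a size of 1. DLAT (1.15), MDH2 (1.11) and OGDH (0.65) had the largest unrepeated values, and PDHX (-9.11) and DLD (-7.94), both pyruvate dehydrogenase components, held repeated ones, in the authors' deposited table.

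Regulators of mitochondrial gene expression were listed for 14 of 16, 10 positive and 4 negative, and 3 reached a size of 1. NRF1 (3.20), the receptor gene ESRRA (1.21) and the coactivator gene PPARGC1A (-0.80) had the largest unrepeated values, and the coactivator gene PPARGC1B the repeated value 10.24, in the authors' deposited table. The mitochondrially encoded subunits had values from -0.22 (MT-CO2) to 0.18 (MT-ND3) for 12 of 13 genes in HUH7 in the authors' deposited table, 4 positive and 8 negative, and 0 reached a size of 1. In PLC/PRF/5 the medians of these lists, from 2 to 15 genes each, ran from 3.28 to 8.10, within the evenly filled range.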

How the data were processed

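m6A MeRIP-seq of the knockout and parental cells of both lines was deposited as 1 table. The log2 fold changes were computed by the authors, per the file headers. Per the submitters' processing notes, FastQC (0.12.0) and the hg38 build were used. Which aligner, peak caller, input scaling and filter were used is not stated in the headers or labels. Read counts, p-values and peak positions were not analysed here, so the depth behind a value is unknown. Names were brought to current symbols with the RefSeq table of GRCh38.p14. Of the members' names 3 in HUH7 and 4 in PLC/PRF/5 were older ones. 1 pseudogene name in PLC/PRF/5 was left out, while RefSeq has 198 pseudogenes under names of this kind, which can share reads with the members.

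From the deposited values, counts by sign, medians, quartiles and the share past an absolute log2 fold change of 1 were computed in Python 3.11.15 with pandas 2.3.3, beside all genes of the column, and the peaks of each PLC/PRF/5 gene were reduced to their median. The summaries were tested on simulated data. Members and lists were chosen with earlier results of these data known. Named genes were every member past a size of 1 in HUH7, every member in PLC/PRF/5, and the highest, the lowest and the one nearest 0 of each complex in HUH7; of the other lists, the 3 largest unrepeated values. Repeated values of those lists, and members named beyond that rule, were named after their values were seen. Alternatives were other thresholds, repeated values left out, centring, symbols, membership, and the value per gene. 1 member counted in the summaries is not reported here by name.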

Additional observations from a re-analysis of the deposited data

Results flagged for a closer look

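NDUFS3, the core subunit of complex I, had -1.01 in HUH7 and 1 peak at 9.39 in PLC/PRF/5, per the authors' deposited table. It was the shared member past a size of 1 in both lines with opposite signs, and only just past it in HUH7. Of all PLC/PRF/5 genes, by the median of peaks, 89% reached a size of 1 and 90.3% were positive. Of the 15 shared members, 7 were negative in HUH7 and positive in PLC/PRF/5. Whether PLC/PRF/5 values are tied to their gene names cannot be settled. The difference was not tested, each line had 1 comparison without replicates, and that both columns use the same direction is not stated.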

How the results depend on the processing

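Subtracting the column's median lowered the positive share of HUH7 members to 40.3%, of HUH7 subunits to 43.6%, of HUH7 assembly factors to 37.5% and of PLC/PRF/5 member genes to 57.7%, by construction of the centring. The count of HUH7 members past the threshold was 21 at 0.5 and 7 at 1.5, against 11 at 1. Overlap with other genes, left out as an alternative chosen after seeing the data, gave 8. The other alternatives, with repeated values, symbols, isoforms, the complex of NDUFA4 or the value per PLC/PRF/5 gene changed, kept counts within 1.5 times and shares within the Clopper-Pearson 95% interval of the main value. That interval is a wide bound, from 24.7% to 75.3% for the HUH7 assembly factors, and it treats genes of 1 comparison as separate draws. Staying within it says little about stability. The 11 HUH7 members past a size of 1 kept their sign and stayed past it under centring. No paired analysis was possible because each group held 1 library and the labels give no replicate numbers. Leaving out a library was not possible for the same reason. Depth is unknown, so what it limits cannot be stated.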

Other observations

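The repeated HUH7 values formed 2 regular series. On the linear scale each of the 8 negative values was a whole-number multiple, from 3 to 10, of the same step of 61.6, and each of the 8 positive values a multiple, from 3 to 10, of a step of 242, within 0.01 of a whole number. NDUFAF6 stood at 3 steps and NDUFB11 at 4 steps of the negative series. Of the other pathway genes, DLD and UQCC3 also stood at 4 negative steps, and LYRM7 at 7 and PPARGC1B at 5 positive steps. The sizes of these members therefore take only a few possible values.

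The columns used gene names of different age. HUH7 listed ATP5MC2, ATP5PF and ATP5IF1 under recent symbols, while PLC/PRF/5 listed ATP5C1, ATP5E, ATP5H and ATP5S, and also ATPIF1 and C14orf2, whose current symbols ATP5IF1 and ATP5MJ meet the naming rule although the deposited names do not. With these, PLC/PRF/5 had 28 members in place of 26. The pseudogene ATP5F1P1, left out by the rule, had a PLC/PRF/5 peak at 11.16 in the authors' deposited table.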
